A study of Arabidopsis thaliana with 4 samples.

Results

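The 71 nuclear genes described here were among those with the brightest signals in control leaf discs of Arabidopsis thaliana. Each is represented by 1 probe set, annotated to a single gene, whose deposited signal was at least 1500 on both control arrays. Affymetrix control probe sets, organelle genes and certain gene families, such as cytochromes P450 and glutaredoxins, were left out by symbol. They are 71 of 13243 probe sets that could have qualified (0.536%) and of 22810 on the array. Genes were chosen on the control signals themselves, so their high control level is a description. The label "most abundant transcripts" holds only in part: a probe set's signal also depends on how well its probes bind, so signals of different genes do not rank their transcripts, and 153 of the 263 probe sets this bright had no gene in the annotation used. A further 7 had several genes, and 31 had symbols starting with a lower-case letter, ATMG or ATCG. Another 1, for the glutaredoxin GRXC2, belonged to a family left out. All of those 31 were plastid genes except cICDH, a nuclear gene for cytosolic isocitrate dehydrogenase.

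Fully grown source leaves of wild-type Col-0 plants that had not flowered were used, from plants grown with 14 h days at 20 °C and 10 h nights at 16 °C. Discs were cut at the end of the night and kept for 1 h in the dark in 2 mM MES buffer at pH 6.5. The treated group had 5 mM dithiothreitol (DTT), a reductant of disulfide bonds that enters cells, and the control group had the buffer alone, so darkness, cutting and buffer were shared by both. Each group had 2 ATH1 arrays from biological replicates, named DTT 1 and DTT 2, and control 1 and control 2. The series asked how the redox state of the cells affects gene expression. The comparison below asks how steady these bright signals were when DTT was added.

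A mature source leaf exports sugar made in its chloroplasts. Nuclear genes supply most antenna proteins, which gather light, many small subunits of the photosystems, and the enzymes that regulate Rubisco. By the end of the night such a leaf has used up much of its starch. Dehydrins and other cold-regulated proteins are hydrophilic proteins that accumulate in plants under cold or water shortage.

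The arrays were deposited on a common scale, and array medians were 29.6 and 25.4 with DTT and 32.8 and 25.9 in controls. The members held 5.93% and 5.86% of the summed signal on DTT 1 and DTT 2, against 6.50% and 5.75% on control 1 and control 2. Their median signals were 2557 and 2624 with DTT, and 2801 and 2480 in controls. RNA added at fixed amounts before hybridization differed by replicate number, with a median ratio over 18 probe sets of 1.69 for DTT 1 over DTT 2 and 1.88 for control 1 over control 2. Same-numbered arrays were therefore also compared as pairs. The labels do not say what a number stands for. Of the leaf and other cell type markers looked up, 4 had a probe set of their own. The mesophyll gene RCA is a member. The guard cell gene FMA had 26 and 31.6 with DTT and 31.4 and 23.8 in controls, the root gene PYK10 10.9 and 13.7 with DTT and 9.8 and 11.2 in controls, and the pollen tubulin TUA1 232.7 and 217.1 with DTT and 253.1 and 259 in controls. No epidermis or phloem marker could be read. GI, a clock gene whose transcript peaks towards evening, had 55.1 and 8.6 after DTT and 68.1 and 11.4 in controls. It was above the array medians in replicate 1 and below them in replicate 2.

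After the hour with DTT the mean signal of 63 of 71 members (88.7%) was within 1.2-fold of the control mean, beside 9111 of 13648 probe sets tested (66.8%). The median size of the log2 difference was 0.12 in members and 0.18 over all probe sets tested, most of which were dimmer. In the 192 other probe sets as bright on both control arrays it was 0.08, so small differences were not particular to the members. The mean log2 difference of DTT minus control ran from -0.60 to 0.29. No member was called different. In limma, 0 of 71 members and 0 of 13648 probe sets tested (percent called 0) passed an adjusted p of 0.05, and the smallest adjusted p of a member was 0.9999. At an unadjusted p under 0.05 there were 0 members, against 95 of all probe sets tested (0.696%). Since that test called nothing on the array, it does not show that the members were unaffected. With replicate number as a block 0 members were called as well, where 0.286% of all probe sets tested were called higher and 0.637% lower. A member's 95% interval had a median half-width of 0.68 on the log2 scale, or 1.60-fold. With the replicate block the median half-width was 0.36, or 1.29-fold, and the intervals of 3 members (AT3G55430, AT5G62360 and EXLA1) left out 0, though none passed the adjusted threshold.

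**Figure D1:**
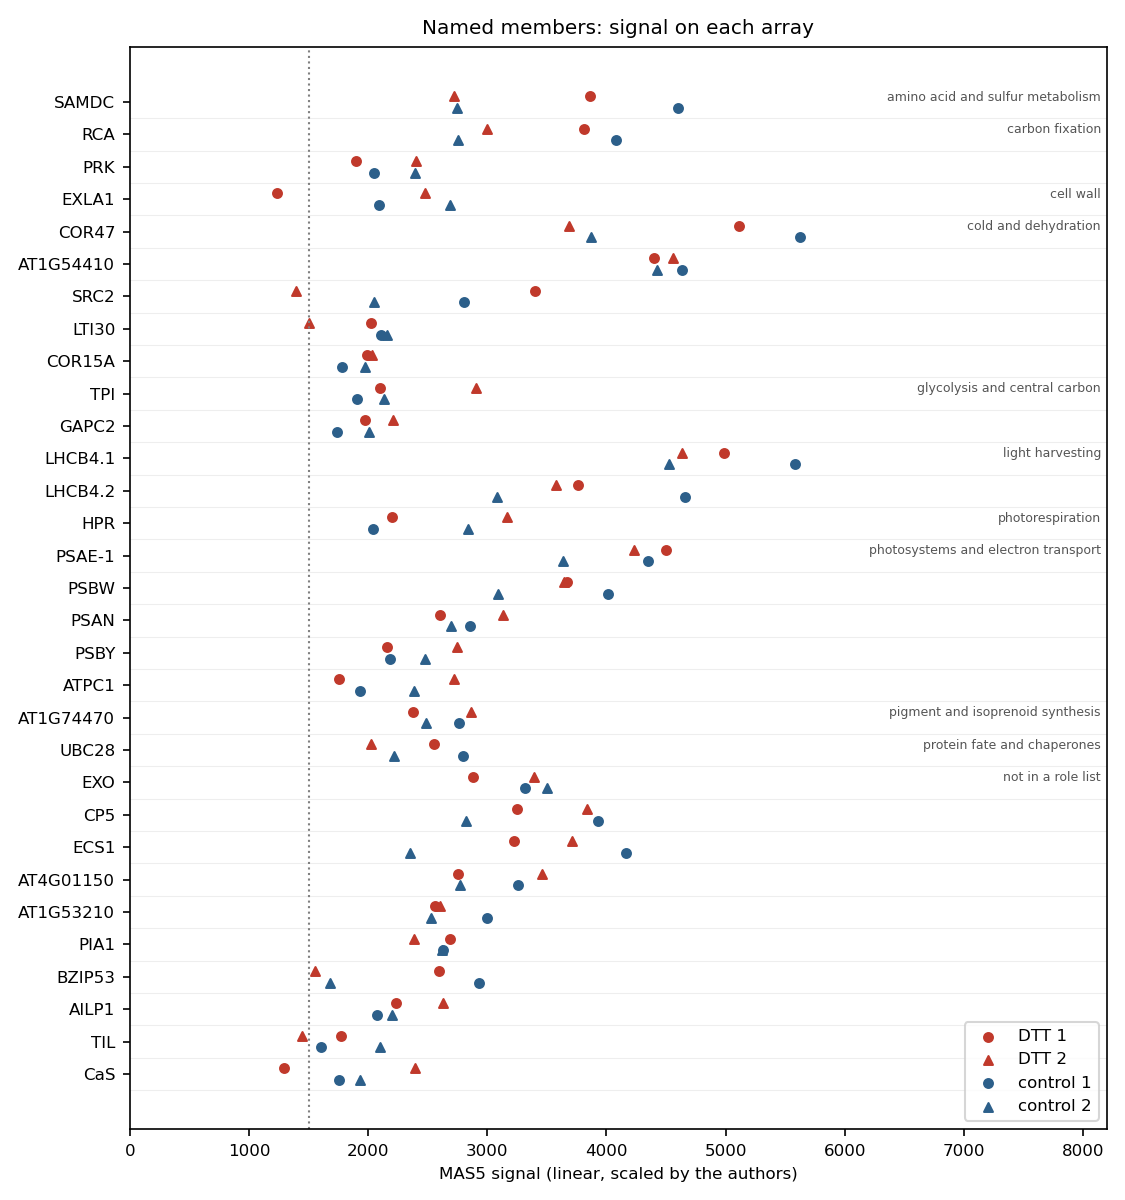
MAS5 signal (linear, horizontal axis) of the 31 members with a name, on DTT 1 and 2 (red) and control 1 and 2 (blue), ordered by role list and then by control signal, with role lists named at the right. The dotted line is the signal of 1500 that both control arrays had to reach; SRC2, EXLA1, TIL and CaS have 1 DTT array to the left of it.

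Several members act in the photosynthetic membrane. Of the 3 probe sets for antenna proteins with a listed gene, 2 were members, and of 12 for photosystems and electron transport, 5 were. These proportions follow from the choice on control signal. LHCB4.1 and LHCB4.2 encode CP29, a minor antenna protein that links the outer antenna to photosystem II. LHCB4.1 had signals of 4988 and 4631 with DTT and 5586 and 4526 in controls. LHCB4.2 had 3757 and 3575 with DTT, against 4658 and 3083 in controls. For both genes the DTT values lay between the control values, so the groups overlapped. The probe set of LHCB4.3, a related gene that was no member, had 196.2 and 624.9 with DTT and 200.4 and 654.4 in controls, and differed by replicate number at about the same ratio in both groups.

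Among small subunits of photosystem I, PSAE-1, on the stromal side where ferredoxin docks, had 4496 and 4227 with DTT and 4345 and 3632 in controls. PSAN, on the lumenal side where plastocyanin docks, had 2601 and 3130 with DTT and 2858 and 2694 in controls. For photosystem II, the small membrane protein PSBW had 3669 and 3648 with DTT and 4012 and 3086 in controls, while PSBY had 2156 and 2743 with DTT, against 2185 and 2480 in controls. ATPC1 encodes the gamma subunit of the chloroplast ATP synthase, whose own disulfide is reduced by thioredoxin in the light. Its signals were 1755 and 2724 with DTT and 1933 and 2381 in controls. In all 5 genes the groups overlapped, and their mean log2 differences ran from 0.03 to 0.13, with a median of 0.06, against -0.01 over all probe sets tested. Over the 9 probe sets of the photosystem list that were tested, 0 were called higher and 0 lower (percent called 0).

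Further chloroplast genes also had overlapping groups. AT4G01150, listed as CURT1A, which bends the thylakoid membrane, had 2758 and 3457 with DTT and 3254 and 2772 in controls. CaS, a thylakoid protein of calcium signalling, had 1292 and 2394 with DTT and 1752 and 1932 in controls, the DTT arrays lying on either side of the controls. AT1G74470, a geranylgeranyl reductase that makes the phytol tail of chlorophyll, had 2378 and 2867 with DTT and 2765 and 2482 in controls. Its mean log2 difference was -0.00, with a 95% interval from -0.63 to 0.62.

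The Calvin cycle was represented by RCA, or Rubisco activase, which frees Rubisco of bound inhibitors, and PRK, or phosphoribulokinase, an enzyme switched on by reduction of its disulfides. RCA had 3809 and 2999 with DTT and 4077 and 2752 in controls. PRK had 1900 and 2400 with DTT, against 2053 and 2395 in controls. Within each replicate number both genes were within 1.2-fold of control. The peroxisomal hydroxypyruvate reductase HPR, of photorespiration, had 2202 and 3161 with DTT and 2039 and 2840 in controls, or 1.08-fold and 1.11-fold in the pairs.

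The members of cytosolic glycolysis had ratios above 1 in both pairs, with no call. TPI, the cytosolic triose phosphate isomerase, had 2098 and 2908 with DTT, against 1905 and 2137 in controls, and GAPC2, a cytosolic glyceraldehyde-3-phosphate dehydrogenase, had 1972 and 2207 with DTT, against 1741 and 2005 in controls. TPI had the highest mean ratio of the 71, 1.22-fold, and its pairs gave 1.102-fold (replicate 1) and 1.36-fold (replicate 2). The interval of its log2 difference of 0.29 ran from -0.41 to 0.998, and the groups of both genes overlapped. Of the 17 tested probe sets of the glycolysis and central carbon list, 0 were called in either direction. That list is wider than cytosolic glycolysis. The median log2 difference of its tested probe sets was 0.16, the value of GAPC2 itself, and they ran from -0.57 (PGM) to 0.33 (CYTC-2).

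The cold and dehydration list gave 5 members from its 16 probe sets. COR47, a dehydrin, had 5109 and 3684 with DTT, against 5627 and 3867 in controls. AT1G54410, listed as the dehydrin HIRD11, had 4403 and 4562 with DTT and 4633 and 4425 in controls, the least variable of this group. LTI30, a further dehydrin, had 2027 and 1507 with DTT, against 2105 and 2155 in controls, so that both DTT values were below both controls. The difference came mostly from replicate 2, with a ratio of 0.963 in replicate 1 and 0.699 in replicate 2.

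COR15A, a protein that protects chloroplast membranes in the cold, had 1986 and 2036 with DTT, against 1777 and 1973 in controls, so that both DTT values were above both controls. The gap was small, at 1.07-fold on average. SRC2, named for a cold-regulated soybean gene, had 3398 and 1395 with DTT and 2801 and 2051 in controls, the widest gap between the DTT arrays of any member. The 5 genes had a median log2 difference of -0.10, or -0.02 with one median per array. Over the 11 tested probe sets of the list the median was -0.01, with a range from -0.32 to 0.31, and 0 were called. TIL, a temperature-induced lipocalin that no list held, had 1770 and 1442 with DTT and 1604 and 2098 in controls.

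**Figure D2:**
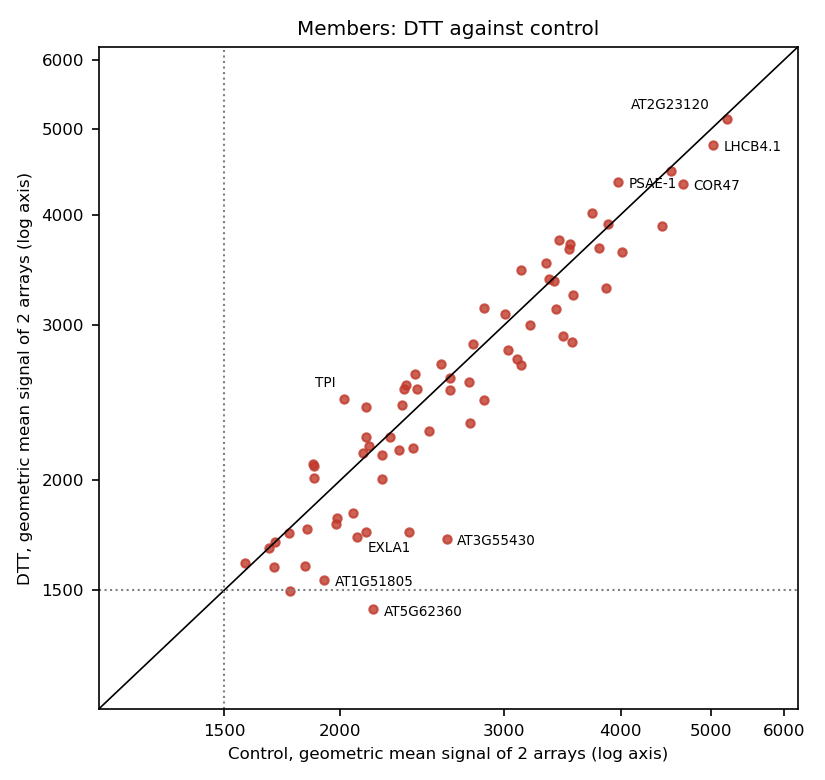
Geometric mean signal of the 2 DTT arrays (vertical, log axis) against that of the 2 control arrays (horizontal, log axis) for all 71 members; the diagonal marks equal signals and dotted lines mark 1500. AT5G62360 and AT3G55430 lie farthest below the diagonal and TPI farthest above it.

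Growth and signalling genes followed. EXLA1, an expansin-like protein of the cell wall, had 1233 and 2480 with DTT, against 2094 and 2685 in controls. Its ratio was 0.589 in replicate 1 and 0.924 in replicate 2, so DTT 1 alone stood well apart. EXO, or EXORDIUM, a cell wall protein tied to brassinosteroid growth responses, had 2883 and 3394 with DTT and 3315 and 3502 in controls.

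SAMDC, the S-adenosylmethionine decarboxylase of polyamine synthesis, had 3864 and 2721 with DTT and 4598 and 2749 in controls. BZIP53, a transcription factor that takes part in the response to low energy, had 2597 and 1553 with DTT, against 2929 and 1679 in controls. Both genes differed more by replicate number than by treatment. UBC28, a ubiquitin-conjugating enzyme, had 2556 and 2027 with DTT, against 2797 and 2218 in controls, a ratio of 0.914 in each pair.

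PIA1, a protein phosphatase 2C, had 2689 and 2385 with DTT and 2631 and 2621 in controls, and AT1G53210, listed as the sodium and calcium exchanger NCL, had 2557 and 2606 with DTT and 2995 and 2525 in controls. Neither differed beyond its replicates. AILP1, listed as resembling an aluminium-induced protein, had 2235 and 2624 with DTT, against 2070 and 2197 in controls, and was the other member with both DTT values above both controls. CP5 had 3246 and 3838 with DTT and 3926 and 2823 in controls, and ECS1 had 3223 and 3714 with DTT and 4165 and 2348 in controls. For CP5 and ECS1 the control arrays lay farther apart than the DTT arrays.

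The other 40 members are known here by locus only, with no name in the tables used, and no role is given for them. Their signals ran from 960.8 to 5304 with DTT and from 1512 to 6139 in controls, and their mean log2 differences from -0.60 to 0.15. AT2G23120 was the brightest member, with 5304 and 4977 under DTT and 6139 and 4416 in controls. AT2G25510 had 3877 and 3901 with DTT and 5455 and 3607 in controls, AT1G15010 had 3851 and 3419 with DTT and 4621 and 3480 in controls, and AT5G54940 had 4407 and 3461 with DTT and 4662 and 3222 in controls. In each of these 4 genes control 1 was the highest of the arrays and the groups overlapped.

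The lowest ratios among members were found here. AT3G55430 had 1483 and 1986 with DTT, against 2382 and 2842 in controls, a mean ratio of 0.660 (0.622 and 0.699 in the pairs). Its log2 difference was -0.60, with a 95% interval from -1.31 to 0.11, and both DTT values were below both controls. AT5G62360 had 2121 and 960.8 with DTT, against 3010 and 1563 in controls, or 0.705 and 0.615 in the pairs, but DTT 1 exceeded control 2. Its interval ran from -1.88 to 0.67.

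In the RefSeq gene table AT3G55430 is the immediate neighbour of TPI (AT3G55440), which had the highest ratio of all members. AT5G62350 and AT5G62360 are the other adjacent pair. AT5G62350 had 2740 and 2743 with DTT, against 3191 and 3003 in controls, a mean ratio of 0.886. Both genes of that pair had lower signals in both replicates.

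AT1G51805 had 1395 and 1701 with DTT, against 1831 and 2018 in controls, and AT5G16010 had 3068 and 2678 with DTT, against 3864 and 3262 in controls. AT1G19380 had 2318 and 2327 with DTT, against 2910 and 2617 in controls. In these 3 genes the DTT values lay below both controls and the mean ratios were 0.802, 0.807 and 0.842. AT1G78040, AT1G29670 and AT1G04430 also had both DTT values below both controls, with mean ratios of 0.841, 0.890 and 0.847. AT1G78040 had 2747 and 3099 with DTT, against 3655 and 3292 in controls.

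Of the locus-only members that were higher in both pairs, 3 were among the 8 members with the highest mean ratios of that kind. AT5G20290 had 1692 and 2541 with DTT and 1609 and 2186 in controls, AT1G18210 had 2140 and 3079 with DTT and 2027 and 2727 in controls, and AT1G23130 had 4035 and 3468 with DTT and 3990 and 2957 in controls. In all 3 both pairs were above 1, with mean ratios of 1.106, 1.092 and 1.089, and the groups overlapped.

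Over the members, 9 (12.7%) had DTT signals that both lay below the controls, beside 9.81% of all probe sets tested. In 2 (2.82%) both lay above, beside 8.01%. In 24 members (33.8%) the signal was lower in both pairs, beside 27% of all probe sets tested. In 12 (16.9%) it was higher in both, beside 24.3%. A mean change of at least 1.5-fold was seen for 2 members (2.82%) that were lower, AT3G55430 and AT5G62360, beside 4.6%. It was seen for 0 that were higher, beside 1.91%. Because members were chosen for high control signals, these counts share the control arrays with the choice and nothing is read from them. The counts of 9 and 2 also moved with the scaling of the arrays, to 14 and 1 with quantile normalization and to 1 and 5 with one median per array.

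In the remaining 35 members the pairs pointed opposite ways. In 27 of these the signal was lower with DTT in replicate 1 and higher in replicate 2, and in 8 the reverse (38% and 11.3% of members, beside 26.4% and 21.9% of all probe sets tested). The median log2 difference over the 71 was -0.14 in replicate 1 and 0.04 in replicate 2, with -0.05 for the mean of both. Over all probe sets tested the same medians were -0.03, 0.01 and -0.01. LHCB4.1, LHCB4.2, PSBW, PSAN, PSBY, ATPC1, RCA, CURT1A, CaS and PRK were among the 27, while PSAE-1 and HPR were higher in both pairs. These pair directions were taken with the deposited scaling only. Array medians were 29.6 on DTT 1 and 32.8 on control 1, against 25.4 on DTT 2 and 25.9 on control 2. Another scaling could therefore move small differences in replicate 1 across 0, and no shared response of these genes is read from them.

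**Figure D3:**
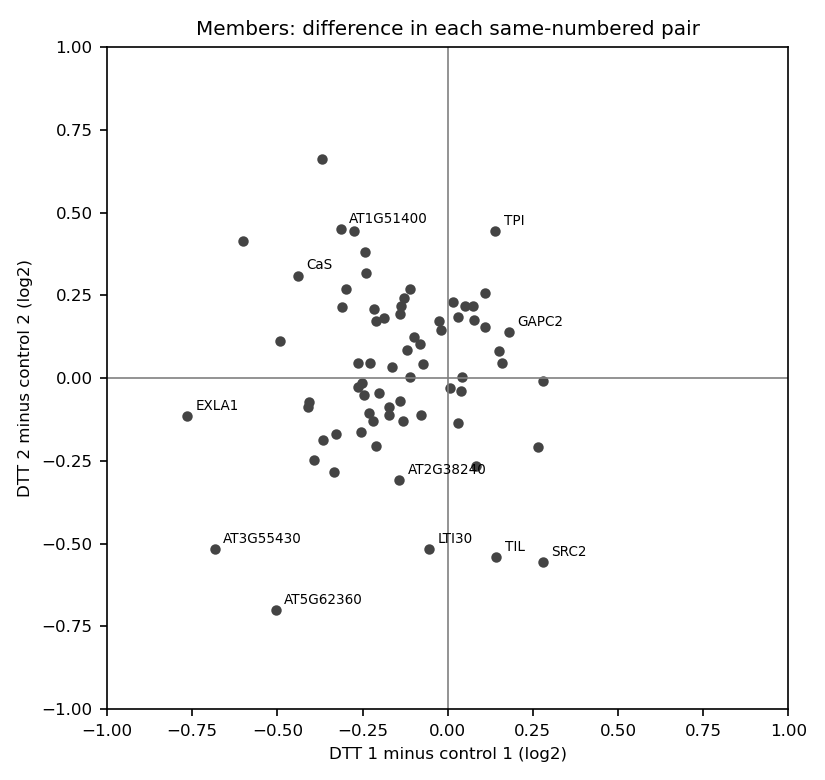
Log2 difference of DTT 1 minus control 1 (horizontal) and DTT 2 minus control 2 (vertical) for the 71 members. With the deposited scaling the upper left holds 27 members, the lower left 24, the upper right 12 and the lower right 8.

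The DTT arrays were not used to choose the members, and on them 59 of 71 again reached 1500 on both arrays. The other 12 were below it on 1 DTT array and none on both. At the edge of the choice, the members nearest the threshold by the lower of their control signals were AT5G64400, with 1985 and 1308 under DTT and 1653 and 1512 in controls, AT3G59350, with 1580 and 1778 under DTT and 1538 and 1825 in controls, and AT5G39570, with 2175 and 1366 under DTT and 2802 and 1554 in controls. Just outside by the same measure were DI19, with 2366 and 1776 under DTT and 2314 and 1490 in controls, AT3G55840, with 1594 and 1768 under DTT and 1520 and 1484 in controls, and AT2G14910, with 1521 and 1649 under DTT and 1775 and 1478 in controls.

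The way of choosing moved the median difference across 0. Choosing by both DTT arrays gave 74 probe sets, which held 59 of the 71 members (83.1% of the members and 79.7% of the 74), and their median log2 difference was 0.02. Choosing by the mean of all 4 arrays gave 97 probe sets, all 71 members among them, and a median of -0.01. The choice on control signals gave -0.05. Choosing on high control signals draws the difference down, and choosing on high DTT signals draws it up. The order of these medians was thus built into the choice, and nothing about DTT is read from it.

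**Figure D4:**
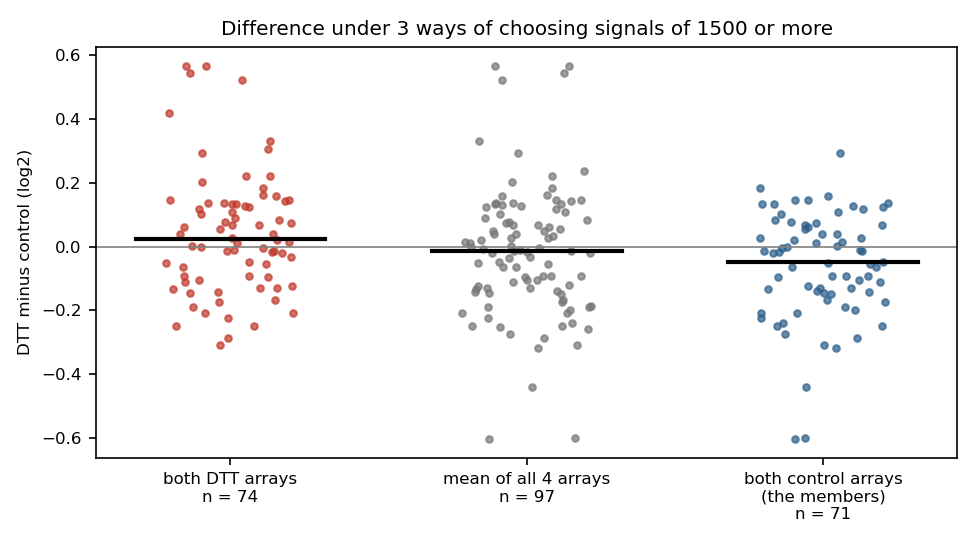
Log2 difference of DTT minus control (vertical) for probe sets with signals of 1500 or more on both DTT arrays (n = 74), on the mean of all 4 arrays (n = 97) and on both control arrays (the 71 members); each point is a probe set and bars are medians, at 0.02, -0.01 and -0.05.

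Differences between replicates were compared with differences between treatments. The median size of the log2 difference between replicates was 0.27 between the DTT arrays and 0.28 between the control arrays, against 0.18 and 0.17 between DTT and control within replicate 1 and replicate 2. Over all probe sets tested the same sizes were 0.51 and 0.43 between replicates, and 0.24 and 0.25 between treatments, so this order was not particular to the members. In 57 of 71 members (80.3%, beside 78.3% of all probe sets tested) the DTT arrays differed from each other by more than the DTT mean differed from the control mean. Single arrays vary more than means of 2 arrays, so a majority here is partly built into the comparison. In 51 members (71.8%, beside 76.8%) the same replicate was the higher in both groups. Across members, the replicate difference with DTT correlated with that in controls at 0.69 (Pearson, n = 71 genes measured on the same arrays).

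AT5G62360 was 2.06-fold higher in replicate 1 than in replicate 2, averaged over DTT and control, and SRC2 1.82-fold, BZIP53 1.71-fold, AT5G39570 1.69-fold, AT2G38240 1.59-fold, AT5G05600 1.57-fold, SAMDC 1.54-fold and COR47 1.42-fold. AT4G24380 was 1.67-fold higher in replicate 2, EXLA1 1.61-fold, AT1G51400 1.56-fold, CaS 1.43-fold, AT5G20290 1.43-fold, HPR 1.41-fold, AT1G18210 1.39-fold and ATPC1 1.38-fold. AT1G51400 had 1567 and 3192 with DTT and 1947 and 2336 in controls, and AT2G38240 had 4285 and 2542 with DTT, against 4730 and 3148 in controls. With the deposited scaling, 28 members (39.4%) had both arrays of replicate 1 above both of replicate 2, beside 39.6% of all probe sets tested. In 16 (22.5%) it was the reverse, beside 26.6%. With one median per array these counts were 12 and 39, so which replicate appears higher on the whole rests on the scaling.

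**Figure D5:**
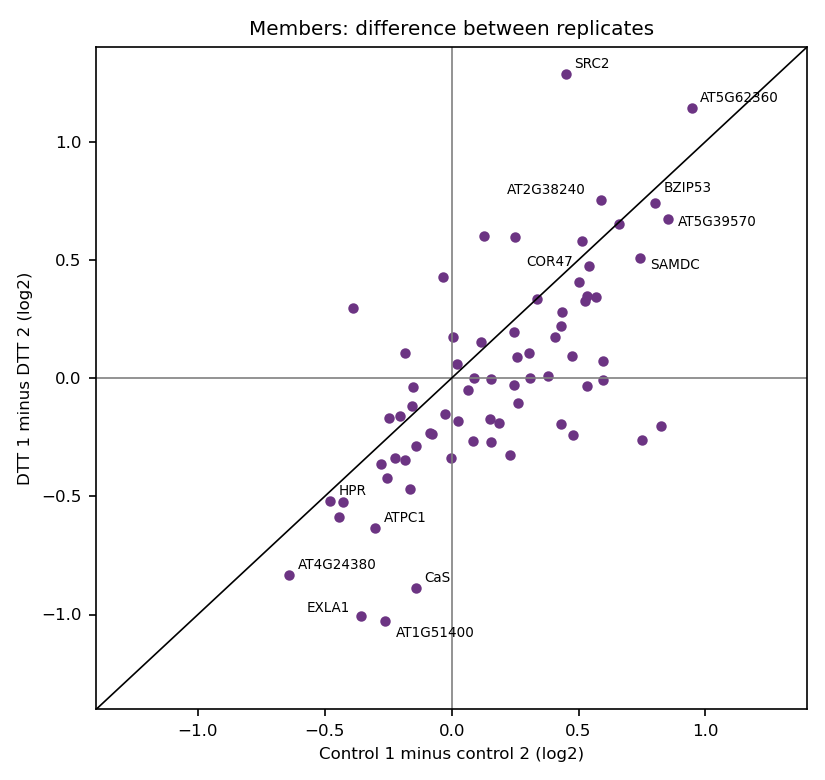
Log2 difference between replicates with DTT (DTT 1 minus DTT 2, vertical) and in controls (control 1 minus control 2, horizontal) for the 71 members; the diagonal marks equal differences. AT5G62360, SRC2 and BZIP53 lie at the upper right, and AT4G24380, EXLA1 and AT1G51400 at the lower left.

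The other 192 probe sets as bright on both control arrays, mostly plastid genes or without a listed gene, had a median log2 difference of -0.01. The median size was 0.08, against 0.12 in members, and the range ran from -3.01 to 0.52. The lowest was the plastid gene psaA, with 4334 and 29.6 with DTT and 3115 and 2683 in controls, so that DTT 2 alone was low. The next lowest was -0.56, within the range of the members. In limma 0 of the 192 were called, and 1, psaA, was called lower with the replicate block. Of them 11 (5.73%) had both DTT values above the controls, beside 8.01% of all probe sets tested. In 14 (7.29%) both lay below, beside 9.81%.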

How the data were processed

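Total RNA from leaf discs was extracted with TRIzol, biotin-labelled and hybridized to ATH1 arrays, 2 per group, per the labels' protocols. The authors deposited 1 linear intensity (signal) per probe set and array. The submitters' processing notes name MAS5 without its settings, and detection calls were not used here. With 2% of values trimmed from each tail the deposited arrays average 100.01, so a change of total mRNA cannot be seen.

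Groups came from sample titles. Signals of 0 were set to 0.1 and log2 was taken. Probe sets under the 40th percentile of mean log2 signal (4.08) and 64 Affymetrix controls were left out, which left 13648; all 71 members were tested. limma 3.58.1 (lmFit, eBayes with a variance trend, no block) under R 4.3.3 tested DTT minus control, two-sided, with Benjamini-Hochberg adjustment over all 13648. The fit was tested on simulated data, but the outcome is not given here and nothing above is read from it. Plots used Python 3.11.15 and matplotlib 3.10.9. With 2 arrays a group, their number limits the precision.

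Gene names came from the platform annotation, and all 71 members matched the RefSeq gene table (TAIR10.1), used for names and neighbours. No sequence was used here. Members and the 18 role lists were chosen with earlier results of these data known, and list patterns that took in wrong genes were corrected after the assignments were read. Genes named were the 10 brightest, up to 4 per role list, the 8 highest and 8 lowest ratios with both pairs alike, the 5 widest gaps between DTT arrays and 3 on each side of the threshold. The other members with a name, LHCB4.3, GI, psaA and the genes described for non-overlap, adjacency or replicate differences were added after their values were seen. Alternatives were scaling, pseudocounts, filters, eBayes settings, thresholds, a replicate block and leaving out arrays.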

Additional observations from a re-analysis of the deposited data

Results flagged for a closer look

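Some bright probe sets were left out of the members because the annotation lists no gene for them. Of these 153, 8 had DTT signals that both exceeded the controls, beside 1093 of 13648 probe sets tested (8.01%). In 11 of the 153 both lay below the controls, beside 1339 of 13648 (9.81%). The 153 are bright on the control arrays by choice, so nothing is read from these counts. None of the 153 was called by limma. The highest ratio among them belonged to a probe set with 2168 and 2866 after DTT, against 1573 and 1914 in controls, a mean of 1.436-fold. The next had 3994 and 3188 after DTT, against 3008 and 2793 in controls (1.231-fold), and the third had 3870 and 3391 after DTT, against 3064 and 2957 in controls (1.204-fold). These 3 were picked as the highest, so their ratios are descriptions.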

How the results depend on the processing

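The counts of members whose arrays do not overlap were recomputed under other scalings, an alternative chosen after seeing the data. The labels do not say that replicate numbers pair the samples; the difference between replicates in controls correlated at 0.746 with that after DTT over all probe sets tested. With the replicate block limma called 126 of 13648 probe sets (39 higher, 87 lower) and 0 members, of which 3 had an unadjusted p under 0.05 (AT3G55430, AT5G62360 and EXLA1), and the smallest adjusted p of a member was 0.145. Without the block 0 probe sets were called under every alternative but leaving out an array, where 0 to 3 were (3 without DTT 1), and 0 members were called under any. Choosing and counting at a threshold of 1000 gave 156 members, 123 of them at 1000 or more on both DTT arrays. The members' median log2 difference ran from -0.15 (without control 2) to 0.04 (without control 1, and also with one median per array). With one median per array the medians of the antenna and Calvin cycle members turned to 0.03 and 0.07. Members with both DTT arrays below both controls numbered 14 with quantile normalization and 1 with one median per array, and those above numbered 1 and 5. With one median per array, 12 members had replicate 1 above replicate 2 and 39 the reverse. Of the 16 genes with the 8 highest and 8 lowest ratios among members whose pairs pointed the same way, none changed direction with scaling or pseudocount, but leaving out an array turned 6, with ranges of -0.15 to 0.44 for AT5G20290, -0.13 to 0.39 for HPR, -0.14 to 0.39 for AT1G18210, -0.093 to 0.34 for AT1G23130, -0.70 to 0.15 for AT5G39570 and -0.94 to 0.064 for EXLA1. AT5G62360 kept its direction but ran from -1.17 (without DTT 1) to -0.03 (without DTT 2). Leaving out an array unbalances replicate number. With 2 arrays a group, their number limits the precision.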
